A study of Mus musculus with 15 samples.

Results

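The genes described here are 48 genes of innate immune signalling: 9 Toll-like receptors (TLRs) with their adaptor Myd88, 5 NF-kB subunits and 3 of their inhibitors, 8 interferon regulatory factors (IRFs), 4 interferon receptor chains, 4 Janus kinases (JAKs), 6 STAT factors and 8 members of the SOCS family. They were taken by name from the 28876 genes of the expression table, by a rule that holds no threshold on measured values, and all 48 were found. The tissue was the aorta-gonad-mesonephros (AGM) region of C57BL/6 mouse embryos, untreated and with no altered allele in any group. At E9.5 the region was divided into the dorsal (AoD) and ventral (AoV) part of the aorta with its surroundings, and at E10.5 into AoD, AoV and the urogenital ridges (UGR). The 5 groups thus are E10 UGR, E10 AoV, E10 AoD, E9 AoV and E9 AoD, with 3 libraries each. The pools behind the libraries ranged from 15 to 34 embryos and were made in separate experiments, so that the spread between libraries is that between pools and not between embryos.

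TLRs sense microbial products at the cell surface or in endosomes and, mostly through Myd88, free NF-kB from its inhibitors and activate IRFs. Interferons and other cytokines signal through receptor-bound JAKs, which phosphorylate STATs, and the SOCS proteins are induced by STATs and shut the same receptors down. In the AGM region, tonic inflammatory signalling of this kind has been tied to the emergence of the first hematopoietic stem cells from the ventral wall of the aorta.

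Expression was measured in RPM (reads assigned to a gene, scaled to the same total of assigned reads in each library), with no correction for gene length. Per library, the step between low values put the depth at 33.78 to 48.54 M reads (M, megareads), 3 reads were worth between 0.0618 and 0.0888 RPM, and libraries of a group correlated with a Pearson r between 0.993 and 0.997 across genes. The dissections carried their own markers: the summed level of 8 urogenital markers, Wt1, Pax2 and Lhx1 among them, was between 725.1 and 795.4 RPM in E10 UGR and between 58.48 and 175 RPM in both E9.5 groups and in E10 AoD, but it also reached 601.4 to 626.8 RPM in E10 AoV, where Pax2 and Lhx1 stayed between 3.91 and 6.43 RPM. E9 AoD held the most neural tube markers (10 genes, between 220.9 and 391.8 RPM against at most 72.31 RPM elsewhere) and the least endothelial ones (12 genes, between 397.8 and 529.9 RPM against at least 625.3 RPM elsewhere). Markers of hepatic and gut endoderm (12 genes) summed to between 590.3 and 850.7 RPM in E9 AoV and to at most 61.53 RPM in any other group. All 12 were called lower in E10 AoV than in E9 AoV, beside 4.99% of all tested genes. Their part in the values of the members was not tested. Summed levels of 15 macrophage markers were 6.821 to 11.51 RPM in E9 AoD and 13.05 to 15.93 RPM in E9 AoV. At E10.5 they were 90.48 to 103.6 RPM in AoD, 69.64 to 83.59 RPM in AoV and 56.86 to 64.92 RPM in UGR. In such bulk tissue, fewer cells of a type and less RNA per cell cannot be told apart.

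Across the region the 48 genes spanned a wide range of levels. Per kb of exon in E10 AoV, Jak1 (31.1 RPM per kb) and Socs3 (31.0 RPM per kb) stood at the top, followed by the NF-kB inhibitor Nfkbia (20 RPM per kb), the interferon receptor chain Ifnar1 (17.9 RPM per kb) and the NF-kB subunit Rela (16 RPM per kb). Of the TLRs, Tlr2 had the highest level there at 0.937 RPM per kb, and Tlr1, Tlr6, Tlr9 and Tlr8 lay below 0.2 RPM per kb. Testing was limited to genes that reached 0.5 RPM in 1 or more libraries, which kept 46 of the 48 members and 18553 genes in all. Tlr8 and Irf4, both of them at or below 0.251 RPM in every library, were left out of the tests. Tlr1, Tlr6, Tlr7 and Tlr9 reached 0.5 RPM only in libraries of E10.5. The filter kept these genes only through that stage, and the counts between stages below include them.

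**Figure D1:**
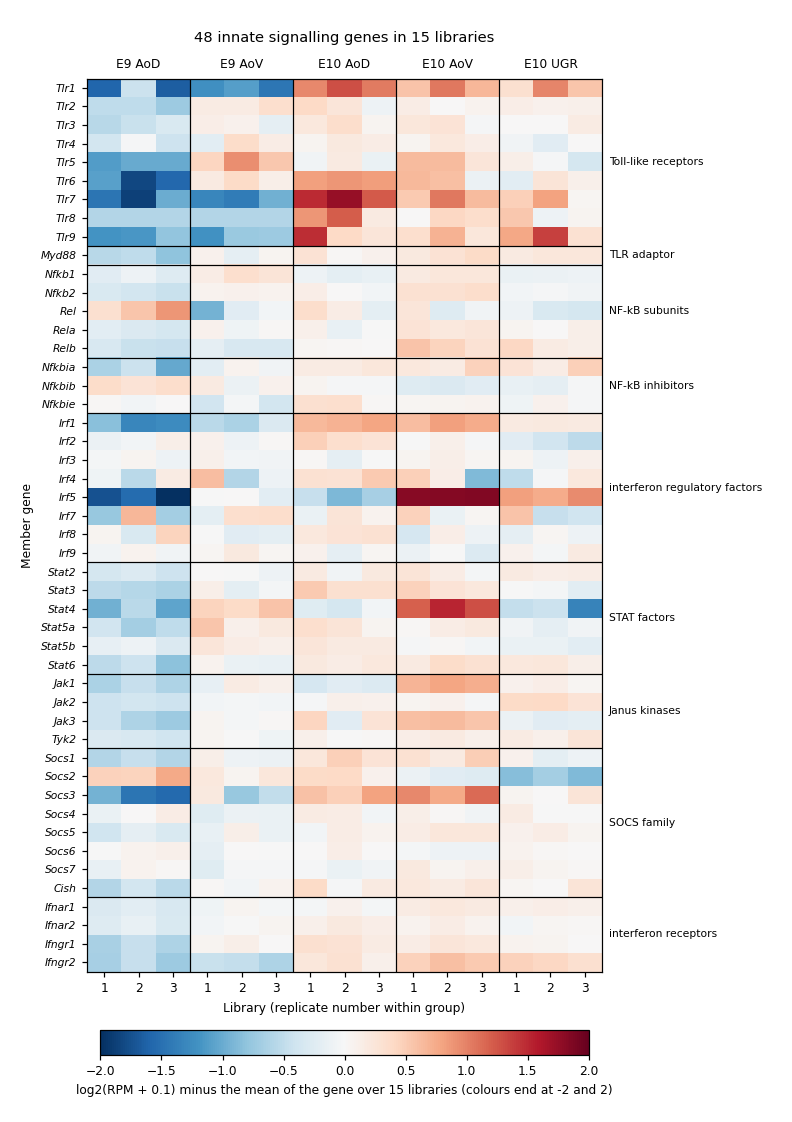
Each row is a member gene and each column a library, coloured by log2(RPM + 0.1) minus the mean of that gene over the 15 libraries (red higher, blue lower, colours ending at -2 and 2). The 3 libraries of E9 AoD are blue in most rows, several TLRs are blue at E9.5 and red at E10.5, and Irf5, Stat4 and Jak1 are reddest in E10 AoV.

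The dorsal tissue of E9.5 was the low point for most members. E9 AoD had the lowest group mean for 34 of the 46 tested members, which is 73.9% of them, and for 33.1% of all tested genes. The highest mean was in E10 AoV for 18 tested members (39.1%, against 19.1% of all tested genes) and in E10 AoD for 13 (28.3%, against 15.9%). This is a description of group means and was not put to a test. E9 AoD was also the group with the most neural tube and the fewest endothelial markers, and the part of tissue composition in these low means was not tested.

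A call required an adjusted p below 0.05 in limma (Benjamini-Hochberg, over all tested genes) and a log2 fold change that reached 1 in size. Fold changes are on the log2(RPM + 0.1) scale, which understates changes of genes below about 0.5 RPM. From E9 AoV to E10 AoV, the ventral comparison of stages, 7 of 46 members were called higher, beside 6.04% of all tested genes, and none lower, beside 4.99%. At any fold, 23 members were higher at an adjusted p below 0.05 (23.6% of all tested genes) and 3 lower (22.4%). At an unadjusted p below 0.05 the members below E9 AoV numbered 4, none of them by 2-fold. The median log2 fold change was 0.20 over the tested members and 0.00 over all tested genes.

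In the dorsal tissue the same interval brought 8 of 46 members called higher (8.6% of all tested genes) and none called lower (4% of all tested genes). Without the fold threshold 34 members were higher, beside 30% of all tested genes, and 2 lower, Nfkbib and Socs2, beside 27.9%. At an unadjusted p below 0.05, limma put 3 members below E9 AoD, again none by 2-fold. The median was 0.44 over the members and 0.00 over all genes.

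Between ventral and dorsal tissue at E9.5, 4 of 46 members were called higher in E9 AoV (8.32% of all tested genes) and none lower (3.47%). Past the adjusted p alone, 28 members were higher in E9 AoV (27.5% of all tested genes) and 3 lower (20.1%), and the unadjusted count of lower members was 5. The direction was that of the low E9 AoD levels above, with a median of 0.34 over the members and 0.02 over all genes. Under quantile normalization the counts past the adjusted p were 23 higher and 6 lower, and under either other scaling 1 member was also called lower.

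At E10.5, in the comparison aimed at the side of the aorta where stem cells emerge, 3 of 46 members were called higher on the ventral side (5.81% of all tested genes) and none lower (4.29%). Past the adjusted p alone 12 members were higher (20.2%) and 5 lower (15.3%), with 10 and 7 under quantile normalization. The unadjusted limma p put 7 members lower in E10 AoV, none by 2-fold. Over the tested members the median was 0.01, with a sign that changed under other scalings, beside 0.02 over all genes. The called members were Irf5, Stat4 and Jak1.

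Against the urogenital ridges, 2 members were called higher in E10 AoV (3.84% of all tested genes) and none lower (3.73%), and 14 were higher (12.5%) and 1 lower (16.6%) at any fold. At an unadjusted p below 0.05, 3 were lower. In E10 AoD, 2 members were called higher than in E10 UGR (4.76%) and 1 lower (6.56%), and 9 were higher (14.5%) and 3 lower (24.8%) at any fold. Since these comparisons share E10 UGR with each other, and the ones above share E10 AoV, E10 AoD and the E9.5 groups, their counts are not independent.

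Whether the change with stage differed between both sides of the aorta was tested as the interaction, the change in AoV minus that in AoD. No member was called with a more positive change in AoV (4.12% of all tested genes) and 2 were called with a more negative one, Tlr5 and Tlr6 (6.89%). At any fold 2 members had a more positive change in AoV (11.8%) and 15 a more negative one (16.3%), with 6 and 8 under quantile normalization. At an unadjusted p below 0.05 limma gave 4 positive and 21 negative members, and the median over the members was -0.29.

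**Figure D2:**
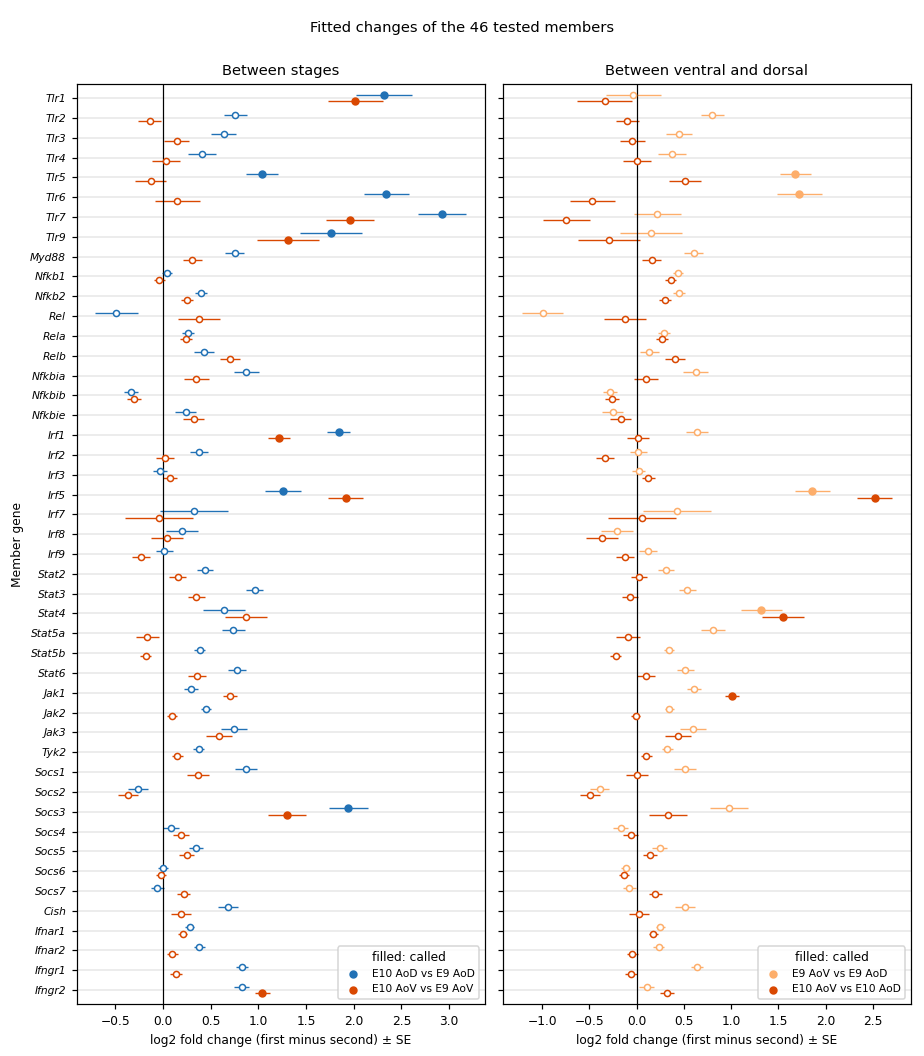
Fitted log2 fold changes with their standard errors for the 46 tested members, between stages (left; blue for dorsal, orange for ventral) and between ventral and dorsal tissue (right; light for E9.5, dark for E10.5), with filled points for called members. Dorsal stage changes lie mostly to the right of 0, and Irf5 and Stat4 are called at both stages in the ventral direction.

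The largest log2 fold changes between stages, on both sides of the aorta, were those of TLRs. Tlr7, an endosomal receptor of single-stranded RNA (chromosome X, 163742861 to 163768490, minus strand of NCBIM37), was at 0.172, 0.107 and 0.278 RPM in E9 AoD and at 0.205, 0.186 and 0.285 RPM in E9 AoV. At E10.5 it stood at 2.02, 2.41 and 1.66 RPM in AoD, 0.986, 1.46 and 1.07 RPM in AoV and 0.948, 1.21 and 0.676 RPM in UGR. Every library of E10.5 was above every library of E9.5, and those of E10 AoD were above all others. Tlr7 rose by 2.93 on the log2 scale in AoD (SE 0.25, adjusted p = 1.67e-07) and by 1.96 in AoV (SE 0.25, adjusted p = 1.47e-05). Within E10.5 it was lower in AoV than in AoD by a log2 fold change of -0.75 (adjusted p = 0.0295), and it was called higher in E10 AoD than in E10 UGR (1.04, SE 0.25, adjusted p = 0.00354).

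Tlr1, which pairs with Tlr2 to bind bacterial lipopeptides (chromosome 5, 65316050 to 65324000, minus strand), held few reads at E9.5. Its levels were 0.0041, 0.132 and 0 RPM in E9 AoD, 0.0342, 0.0457 and 0.0146 RPM in E9 AoV, then 0.511, 0.663 and 0.545 RPM in E10 AoD, 0.363, 0.547 and 0.397 RPM in E10 AoV and 0.29, 0.512 and 0.361 RPM in E10 UGR. All E10.5 libraries were above all E9.5 ones. The groups of E9.5 summed to 5 and 4 reads, against 69 in E10 AoD and 52 in E10 AoV, which is a ratio of 14.2 in AoD (exact 95% interval 5.8 to 45.1, counting error only) and of 13.9 in AoV (5.12 to 52.9). The fitted log2 fold changes were 2.32 (SE 0.29, adjusted p = 8.98e-06) and 2.02 (SE 0.29, adjusted p = 5.29e-05). Of the 50-base windows of Tlr1, 17.4% recur in another gene, mostly Tlr6, so that its divided reads are uncertain. Almost all of the E9 AoD reads (4.91) were in replicate 2. Without that library the group rounded to 0 reads, and E10 AoD was at least 8.3-fold higher against a level of 3 reads per library. The ratio was 8.87 without E9 AoD replicate 3. These ratios without a library were added after the data were seen.

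Tlr6, the other lipopeptide partner of Tlr2 (chromosome 5, 65344345 to 65351287, minus strand), behaved differently in ventral tissue. In E9 AoD it was at 0.0696, 0.00269 and 0.0214 RPM and in E9 AoV at 0.308, 0.372 and 0.294 RPM. At E10.5 the levels were 0.54, 0.566 and 0.545 RPM in AoD and 0.467, 0.451 and 0.232 RPM in AoV, with 0.213, 0.331 and 0.287 RPM in UGR. E9 AoD was thus below every other library, whereas the ranges of E9 AoV and E10 AoV overlapped. In reads, E10 AoD exceeded E9 AoD 17.2-fold (exact 95% interval 6.42 to 65.1, 67 against 4 reads) and E9 AoV exceeded E9 AoD 10.1-fold (3.68 to 38.9, 42 against 4 reads). The log2 fold changes were 2.34 (SE 0.24, adjusted p = 1e-06) and 1.72 (SE 0.24, adjusted p = 2.92e-05), and the change with stage differed between AoV and AoD by -2.19 (SE 0.34, adjusted p = 0.000182). With a pseudocount of 1 RPM, at which such low levels count for little, that difference was -0.53 and Tlr6 was not called. Without E9 AoD replicate 1, which held 2.83 of its 4 reads, 1 read was left, and the ratios were 46.4 (8.05 to 1860) for E10 AoD and 27.3 (4.64 to 1100) for E9 AoV. Windows shared with another gene, mostly Tlr1, make up 17.8% of those of Tlr6, so that its reads are as uncertain as those of Tlr1.

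Tlr5, the receptor of flagellin (chromosome 1, 184884919 to 184906175, plus strand), was at 0.811, 0.887 and 0.877 RPM in E9 AoD, 2.55, 3.66 and 2.78 RPM in E9 AoV, then 1.79, 2.13 and 1.70 RPM in E10 AoD, 2.96, 2.97 and 2.24 RPM in E10 AoV and 2.04, 1.85 and 1.44 RPM in E10 UGR. The ventral libraries were above the dorsal ones of the same stage at both stages. E9 AoV exceeded E9 AoD by 1.68 on the log2 scale (SE 0.16, adjusted p = 1.02e-06), E10 AoD exceeded E9 AoD by 1.04 (SE 0.16, adjusted p = 8.16e-05), and the interaction was -1.17 (SE 0.23, adjusted p = 0.00157). The rise in AoD lost its call under quantile normalization (0.87) and without E10 AoD replicate 2 (0.95).

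Tlr9, an endosomal receptor of unmethylated DNA (chromosome 9, 106124929 to 106129207, plus strand), summed to 5 reads in E9 AoD and 7 in E9 AoV, against 48 in E10 AoD and 34 in E10 AoV. Its level was at most 0.0713 RPM in the E9.5 libraries and between 0.233 and 0.692 RPM in those of E10.5, with no overlap between stages. The ratios were 9.87 in AoD (exact 95% interval 3.95 to 31.8) and 5.20 in AoV (2.27 to 13.9), and the log2 fold changes were 1.76 (SE 0.33, adjusted p = 0.000322) and 1.31 (SE 0.33, adjusted p = 0.00426). Leaving out E10 AoD replicate 1 gave a ratio in AoD of 6.38 (2.34 to 21.6), and leaving out E9 AoD replicate 3 gave 15.4 (4.04 to 131). Tlr8, its neighbour in function for RNA, had 0 reads in all 6 libraries of E9.5 and 20, 10 and 8 reads in E10 AoD, E10 AoV and E10 UGR. Set against a level of 3 reads per library, Tlr8 rose at least 2.29-fold in AoD between stages, and the same bound in AoV was at least 1.18-fold.

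The remaining TLRs were steadier. Tlr2, Tlr3 (a receptor of double-stranded RNA) and Tlr4 (the receptor of lipopolysaccharide) lay between 1.13 and 3.54 RPM in every library. From E9 AoD to E10 AoD they rose by 0.76, 0.64 and 0.41 on the log2 scale at an adjusted p below 0.05, and between E9 AoV and E10 AoV their log2 fold changes of -0.14, 0.14 and 0.03 did not pass. In all, 8 of 8 tested TLRs were higher in E10 AoD than in E9 AoD at an adjusted p below 0.05 (30% of all tested genes). Of these, 5 were called (8.6%). In AoV 3 of 8, all of them called, were higher at E10.5 (23.6% of all tested genes at any fold, 6.04% called). Tlr1, Tlr6, Tlr7 and Tlr9 passed the filter only through E10.5 libraries, and Tlr8 did not pass it. The TLR counts are therefore no independent support for a rise with stage. Myd88, the adaptor that most TLRs share, was at 5.17, 5.32 and 4.34 RPM in E9 AoD and between 6.72 and 9.94 RPM in all other libraries, and rose by 0.75 in AoD (adjusted p = 1.53e-05) and 0.31 in AoV (adjusted p = 0.0215).

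Macrophage markers rose between stages, as Tlr1, Tlr7 and Tlr9 did on both sides of the aorta. In AoV, Tlr2, Tlr3, Tlr4, Tlr5 and Tlr6 did not pass the adjusted p. All 3 defining macrophage markers, Csf1r, Emr1 and Cx3cr1, were higher at E10.5 on both sides of the aorta, with log2 fold changes of 3.94, 4.36 and 4.0 in AoD and 1.78, 3.98 and 3.43 in AoV. Of the 13 tested markers of that list, 12 were called higher in E10 AoD than in E9 AoD (8.6% of all tested genes). In E10 AoV 12 were called higher than in E9 AoV (6.04%). Emr1 was at or below 0.172 RPM in every E9.5 library. Emr1, Fcgr1, C1qa, Aif1 and Tyrobp reached 0.5 RPM only in E10.5 libraries. The macrophage counts between stages are therefore no independent support for a rise with stage. Within E10.5 the order of the macrophage sums, AoD above AoV above UGR, was also that of the Tlr1, Tlr3, Tlr6, Tlr7 and Tlr8 means. Other TLRs departed from it. Tlr9 was highest in UGR (0.425 RPM, against 0.402 in AoD and 0.283 in AoV). Tlr5 was highest in AoV (2.72 RPM, against 1.87 in AoD), Tlr2 was lowest in AoV, and Tlr4 was equal in AoD and AoV. The part of macrophages in the TLR levels was not tested. Csf1r was already higher in E9 AoV than in E9 AoD (1.59, adjusted p = 2.01e-05), the comparison in which Tlr5 and Tlr6 were called, while Emr1 (0.03) and Cx3cr1 (0.21) did not pass there.

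**Figure D3:**
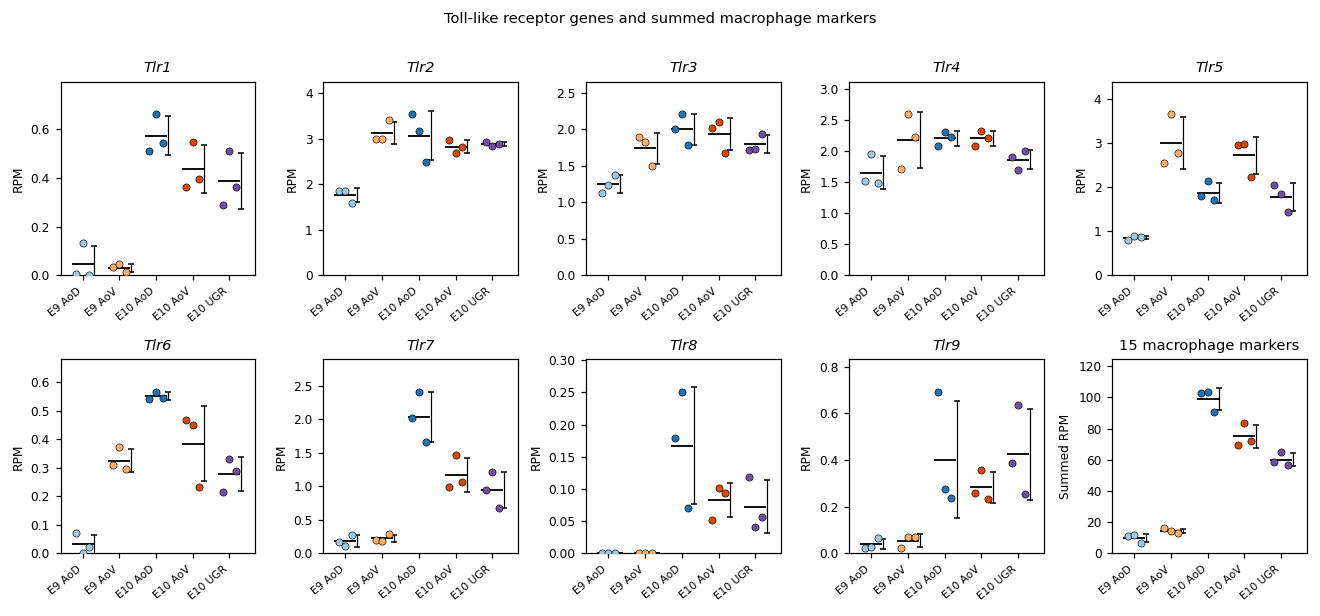
RPM of the 9 TLR genes and the summed RPM of 15 macrophage markers in every library (points), with the mean of each group (line) and its SD (bar beside it), each panel on a linear axis from 0. Tlr1, Tlr7, Tlr8, Tlr9 and the macrophage sum are near the bottom of their panels in both E9.5 groups, whereas Tlr5 and Tlr6 are already up in E9 AoV.

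The NF-kB genes changed by less. Rela, the main transactivating subunit, lay at 31.6, 30.0 and 28.6 RPM in E9 AoD, 38.9, 34.5 and 37.1 RPM in E9 AoV, then 39.2, 33.0 and 36.5 RPM in E10 AoD and 44.3, 42.6 and 43.5 RPM in E10 AoV, with 38.2, 37.0 and 39.6 RPM in E10 UGR. E10 AoV was above all other libraries and E9 AoD below all others. Nfkb2, the precursor of the non-canonical pathway, followed the same order at its extremes, with 9.92, 9.54 and 8.99 RPM in E9 AoD and 15.3, 15.3 and 15.8 RPM in E10 AoV. Between stages in AoV, Rela rose by 0.24, Nfkb2 by 0.25 and Relb by 0.70, and at E10.5 the ventral tissue was above the dorsal one by 0.27, 0.30 and 0.41. All 6 of these differences passed the adjusted p and none reached 2-fold.

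Nfkb1, the precursor of the canonical partner subunit, separated positions rather than stages. In AoV it was at 56.8, 64.8 and 60.9 RPM at E9.5 and 57.9, 59.6 and 60.1 RPM at E10.5, and between 42.8 and 47.9 RPM in E10 UGR and on the dorsal side at both stages. Every AoV library was above every other one. The ventral excess was 0.44 at E9.5 (adjusted p = 8.7e-06) and 0.36 at E10.5 (adjusted p = 8.23e-05), and the change with stage was 0.04 in AoD and -0.04 in AoV. Rel, the subunit typical of lymphoid cells, went the other way at E9.5, from 3.37, 4 and 5.02 RPM in AoD to 1.34, 2.27 and 2.59 RPM in AoV. This log2 difference of -0.996 (adjusted p = 0.00179) was just short of the fold threshold, and Rel was the member called lower under either other scaling.

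Of the inhibitors, Nfkbia, itself an NF-kB target that resets the pathway, rose from 16.7, 19.2 and 12.6 RPM in E9 AoD to 29.0, 28.8 and 30.1 RPM in E10 AoD (0.87, adjusted p = 4.43e-05). In AoV it went from 22.4, 27.0 and 24.6 RPM to 29.9, 29.1 and 35.6 RPM (0.35, adjusted p = 0.039), with no overlap in either tissue. Nfkbib declined on both sides, by a log2 fold change of -0.33 in AoD (adjusted p = 0.00116) and -0.31 in AoV (adjusted p = 0.00311). Nfkbie passed in AoV (0.32) and not in AoD (0.24).

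Irf5, an IRF that acts below TLRs and drives inflammatory cytokines, had the largest ventral excess of the tested members at both stages on the log2(RPM + 0.1) scale. That scale lowers the excess of Tlr6 at E9.5, which is larger in reads. Irf5 lies on chromosome 6 from 29476625 to 29491869, on the plus strand of NCBIM37. It was at 1.60, 1.85 and 0.898 RPM in E9 AoD, 5.54, 5.61 and 4.80 RPM in E9 AoV, then 4.05, 2.94 and 3.48 RPM in E10 AoD, 20, 20.3 and 20.5 RPM in E10 AoV and 9.98, 9.36 and 10.9 RPM in E10 UGR. No groups overlapped: E10 AoV was highest, then E10 UGR, E9 AoV, E10 AoD and E9 AoD. E10 AoV exceeded E10 AoD by 2.52 on the log2 scale (SE 0.19, adjusted p = 7.17e-08) and E9 AoV by 1.91 (SE 0.19, adjusted p = 1.11e-06). The other called differences were 1.86 between E9 AoV and E9 AoD (adjusted p = 1.35e-06), 1.26 between E10 AoD and E9 AoD (adjusted p = 4.58e-05), 1.003 between E10 AoV and E10 UGR (adjusted p = 0.000844) and -1.51 between E10 AoD and E10 UGR (adjusted p = 1.19e-05). The difference from E10 UGR sits on the fold threshold and was not called without E10 AoV replicate 3 (0.99), E10 UGR replicate 1 or E10 UGR replicate 2 (0.95). The changes with stage in AoV and in AoD did not differ by the interaction test (0.66, adjusted p = 0.0814).

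Exons of Tnpo3, on the opposite strand, cover 14.2% of the exon bases of Irf5, and the library kit is not stated to keep strand. Tnpo3 was at 156 ± 2.31 RPM in E10 AoV, 161 ± 1.15 RPM in E10 AoD and 172 ± 1.73 RPM in E10 UGR, against 180 ± 7.55 RPM in E9 AoV and 190 ± 10.4 RPM in E9 AoD (SD, n = 3). The part of reads from Tnpo3 in the Irf5 level was not tested. Of 13 macrophage markers, 6 were lower in E10 AoV than in E10 AoD at an adjusted p below 0.05 (15.3% of all tested genes), and 7 did not pass. Csf1r was among the lower ones, at -0.57 (adjusted p = 0.0457). The urogenital marker sums were high in E10 UGR and in E10 AoV, as Irf5 was. Irf5 was higher in E10 AoV, whereas the sum was higher in E10 UGR. Of the 8 urogenital markers, 4 were called lower in E10 AoV than in E10 UGR (3.73% of all tested genes) and 1, Gata4, higher (3.84%). Gata4 was at 216, 236 and 248 RPM in E10 AoV and 64.9, 57.8 and 69.4 RPM in E10 UGR. It was at 92.8, 103 and 91.1 RPM in E9 AoV and 4.07, 5.24 and 6.32 RPM in E10 AoD. The part of either cell type in the Irf5 level was not tested.

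Irf1, the IRF that interferon gamma and NF-kB induce, rose with stage and not with position at E10.5. The gene (chromosome 11, 53583516 to 53591876, plus strand) was at 5.53, 3.95 and 4.08 RPM in E9 AoD and 6.79, 6.33 and 8.08 RPM in E9 AoV. At E10.5 it reached 15.5, 16.1 and 17.2 RPM in AoD, 15.2, 17.6 and 16.6 RPM in AoV and 11.2, 11.3 and 11.2 RPM in UGR. All E10.5 libraries were above all E9.5 ones, and both aortic ranges at E10.5 overlapped above that of UGR. Irf1 rose by 1.84 in AoD (SE 0.12, adjusted p = 9.55e-09) and by 1.21 in AoV (SE 0.12, adjusted p = 8.84e-07), and the difference between these changes was -0.63 (adjusted p = 0.0101). Between E10 AoV and E10 AoD the log2 fold change was 0.02, with an SE of 0.12.

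The other IRFs were flat or low. Irf3, the constitutive factor of antiviral signalling, lay between 27.9 and 34.3 RPM in all 15 libraries, and Irf9, which joins STATs in the interferon-induced complex, between 11.8 and 16.5 RPM, with no difference past the adjusted p in any of the 6 comparisons for either gene. The same held for Irf8 (between 2.15 and 3.78 RPM) and Irf7 (between 0.197 and 0.70 RPM). Irf2, which opposes Irf1 at shared sites, was highest in E10 AoD at 12.5, 11.3 and 10.9 RPM, with 8.95, 9.64 and 8.85 RPM in E10 AoV and 7.67, 6.83 and 6.22 RPM in E10 UGR. These 3 groups did not overlap, and E10 AoD was above E10 AoV (E10 AoV lower by a log2 fold change of -0.33, adjusted p = 0.0111) and E10 UGR (0.74, adjusted p = 1.36e-05). Irf4 stayed at or below 0.182 RPM.

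Among the interferon receptors, the chains of the receptor for interferon gamma moved most. Ifngr2, its signalling chain (chromosome 16, 91547317 to 91565414, plus strand), was at 14.2, 16.5 and 13.6 RPM in E9 AoD, 16.6, 16.2 and 14.8 RPM in E9 AoV, then 26.5, 27.9 and 24.3 RPM in E10 AoD, 31.1, 34.6 and 32.6 RPM in E10 AoV and 31.1, 30.3 and 28.2 RPM in E10 UGR. All E10.5 libraries were above those of E9.5. The rise was 1.04 in AoV (SE 0.08, adjusted p = 7.78e-08), called by a narrow margin that was lost without E9 AoV replicate 3 (0.99), and 0.83 in AoD (adjusted p = 5.21e-07). Ifngr1, the chain that binds the ligand, rose by 0.83 in AoD (adjusted p = 5.07e-08) from 11.2, 12.7 and 11.4 RPM to 22, 21.4 and 19.6 RPM. In AoV it was at 18.3, 19.1 and 17.7 RPM at E9.5 and 19.5, 20.7 and 20.2 RPM at E10.5, a change of 0.13 that did not pass (adjusted p = 0.0998), and the difference between both sides did (-0.70, adjusted p = 3.44e-05). The type I receptor chains Ifnar1 (between 74.0 and 107 RPM) and Ifnar2 (between 13.6 and 19.4 RPM) were lowest in E9 AoD and stayed below 2-fold throughout. Exons of Il10rb cover 14.6% of the exon bases of Ifnar2, on the same strand.

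Jak1, the kinase used by the interferon receptors and by receptors of the gp130 and common gamma families, was the most abundant member in E10 AoV. The gene (chromosome 4, 100824972 to 100937887, minus strand) was at 86.8, 97.8 and 87.5 RPM in E9 AoD, 120, 151 and 144 RPM in E9 AoV, then 107, 115 and 112 RPM in E10 AoD, 216, 234 and 224 RPM in E10 AoV and 143, 148 and 139 RPM in E10 UGR. E10 AoV was above all other libraries and E9 AoD below all others. The ventral excess at E10.5 was 1.01 (SE 0.07, adjusted p = 4.73e-08), the ventral rise with stage 0.71 (adjusted p = 1.81e-06) and the excess over UGR 0.65 (adjusted p = 7.91e-06). The call against E10 AoD lies at the fold threshold and was lost under median-ratio scaling, under quantile normalization and without E10 AoD replicate 1 or E10 AoV replicate 2. Jak1 was also 1 of the 2 members whose change with stage was more positive in AoV than in AoD (0.41, adjusted p = 0.00779).

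Its relatives differed in where they peaked. Jak3, the hematopoietic kinase of the common gamma chain, was at 8.04, 8.25 and 7.81 RPM in E10 AoV, above all other libraries, and at 3.95, 3.39 and 3.14 RPM in E9 AoD. Against E10 UGR it was higher in E10 AoV by 0.78 (adjusted p = 0.000464). Jak2, which serves hormone-type cytokine receptors such as that of erythropoietin, peaked in E10 UGR at 62.6, 63.5 and 57.9 RPM, with at most 51.3 RPM in any aortic library, and was lower than UGR by -0.31 in AoV (adjusted p = 0.00017) and -0.30 in AoD (adjusted p = 0.000153). Tyk2 ranged from 15.5 to 24.4 RPM. All 4 kinases were higher in E9 AoV and in E10 AoD than in E9 AoD at an adjusted p below 0.05. The shares over all tested genes were 27.5% and 30%.

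Stat4, the STAT of interleukin-12 and type I interferon signalling in lymphoid cells, was low and ventral. It lies on chromosome 1 from 52043992 to 52164032, on the plus strand. Levels were 0.393, 0.564 and 0.363 RPM in E9 AoD, 1.21, 1.16 and 1.33 RPM in E9 AoV, then 0.717, 0.652 and 0.829 RPM in E10 AoD, 2.10, 2.66 and 2.26 RPM in E10 AoV and 0.593, 0.617 and 0.282 RPM in E10 UGR. E10 AoV was above all others, E9 AoV was next, and E10 UGR overlapped E9 AoD. The ventral excess was 1.55 at E10.5 (SE 0.22, adjusted p = 5.15e-05) and 1.32 at E9.5 (SE 0.22, adjusted p = 0.000173), and E10 AoV exceeded E10 UGR by 2.08 (SE 0.22, adjusted p = 4.59e-06). The summed level of 9 germ cell markers was also high in AoV. It was between 64.91 and 74.32 RPM in E9 AoV and between 55.66 and 56.8 RPM in E10 AoV. The other groups were at most at 43.28 RPM. In E9 AoV most of the sum was that of Ifitm1 (35.9, 32.5 and 39.6 RPM) and Prdm1 (19.4, 27.6 and 23.8 RPM). Between stages in AoV the sum of the 9 genes fell. Of the 9 genes, however, 6 were higher in E10 AoV at an adjusted p below 0.05 (23.6% of all tested genes) and 2 lower (22.4%). Among the higher ones, 4 were called (6.04%). Prdm14 and Nanos3 reached 0.5 RPM only in E10.5 libraries. The defining germ cell marker Pou5f1 was at 1.82, 2.25 and 1.95 RPM in E9 AoV and, at E10.5, 13.8, 14.8 and 15.6 RPM on the same side. In E10 UGR Pou5f1 was at 2.52, 2.86 and 2.51 RPM, above E9 AoV. Nanog was also higher in E10 UGR (1.72, 1.32 and 1.04 RPM) than in E9 AoV (0.342, 0.557 and 0.666 RPM), while the ranges of Dppa3 overlapped. The part of germ cells in the Stat4 level was not tested.

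**Figure D4:**
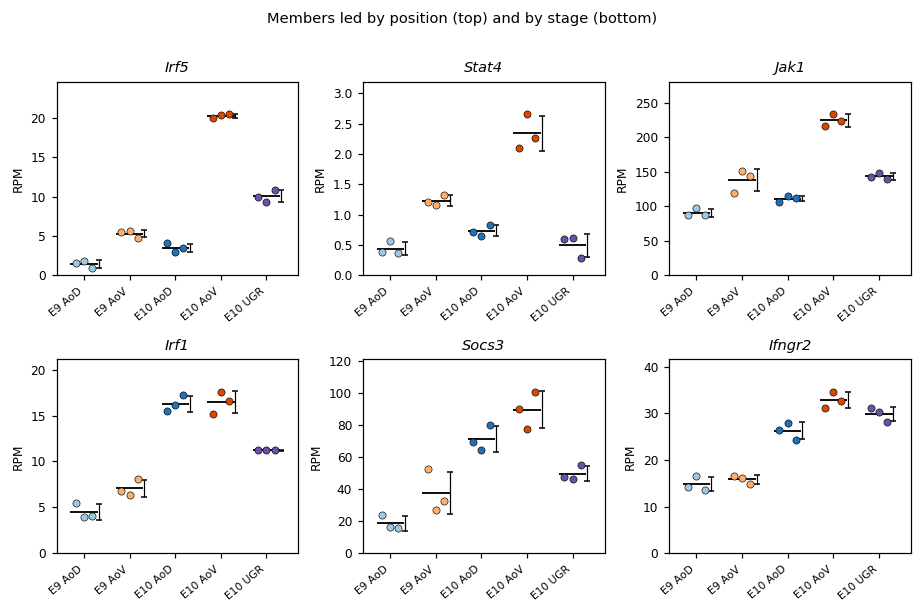
RPM of Irf5, Stat4 and Jak1 (top) and of Irf1, Socs3 and Ifngr2 (bottom) in every library (points), with group means (lines) and SD (bars beside them), each on a linear axis from 0. The top genes peak in E10 AoV, at 20 to 20.5 RPM for Irf5, and the bottom genes are higher in all E10.5 libraries of the aorta than in those of E9.5.

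The remaining STATs had their lowest mean in E9 AoD. Stat3, the factor of the interleukin-6 family, rose from 18.3, 17.6 and 16.9 RPM in E9 AoD to 37.7, 32.7 and 32.8 RPM in E10 AoD, which is 0.96 on the log2 scale (adjusted p = 3.71e-07). In AoV it went from 28.4, 23.0 and 25.6 RPM to 36.0, 31.9 and 30.3 RPM (0.35, adjusted p = 0.00461). Neither tissue's stages overlapped, and the changes differed by -0.61 (adjusted p = 0.00188). Stat5a and Stat5b, which transmit growth hormone, prolactin and erythropoietin signals, rose in AoD by 0.74 and 0.38 and did not rise in AoV, where Stat5b was lower at E10.5 by -0.18 (adjusted p = 0.0158). These paralogs share 15.2% and 11.1% of their 50-base windows, mostly with each other. All 6 STATs were higher in E9 AoV and in E10 AoD than in E9 AoD at an adjusted p below 0.05, beside 27.5% and 30% of all tested genes.

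Socs3, the feedback inhibitor of gp130 receptors and a STAT3 target, rose with stage on both sides of the aorta. The gene (chromosome 11, 117827393 to 117831361, minus strand) was at 23.9, 16.7 and 15.6 RPM in E9 AoD, 52.8, 27.3 and 32.9 RPM in E9 AoV, then 69.3, 64.4 and 80.3 RPM in E10 AoD, 90.0, 77.9 and 101 RPM in E10 AoV and 47.9, 46.4 and 55.1 RPM in E10 UGR. E10 AoV and E10 AoD were above both E9.5 groups, and their ranges overlapped each other. The rise was 1.94 in AoD (SE 0.20, adjusted p = 1.28e-06) and 1.30 in AoV (SE 0.20, adjusted p = 9.92e-05), where E9 AoV replicate 1 stood apart from the other two. Between E10 AoV and E10 AoD the log2 fold change was 0.33 (adjusted p = 0.235).

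Socs1, which restrains interferon signalling, rose from 2.09, 2.28 and 2.10 RPM in E9 AoD to 3.77, 4.49 and 3.86 RPM in E10 AoD (0.87), and from 3.46, 2.97 and 2.92 RPM to 3.97, 3.63 and 4.54 RPM in AoV (0.36), both at an adjusted p below 0.05. Cish, a STAT5 target, rose by 0.68 in AoD at the same threshold. Socs2, the inhibitor of growth hormone signalling, had its highest mean in E9 AoD, at 13.6, 13.5 and 16.7 RPM. It was lowest in E10 UGR at 5.45, 6.11 and 5.31 RPM, with 12.1 ± 1.42 RPM (SD, n = 3) in E10 AoD and 9.04, 8.4 and 8.26 RPM in E10 AoV. The E10.5 groups did not overlap, and E10 AoD exceeded E10 UGR by 1.09 (SE 0.10, adjusted p = 6.95e-07). Socs4, Socs5, Socs6 and Socs7, stayed within 1.41-fold between their highest and lowest group means.

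Irf1 and Socs3 were called between stages, Stat4 for a ventral excess at both stages, and Irf5 for both. Promoter sequences are given for these members, because the pathways above act on DNA through short motifs. They are RefSeq sequences of GRCm38.p6, another build than that of the gene positions above, from 250 bases before to 50 bases after the start, and run 5′ to 3′ along the gene's strand. Capitals mark matches on either strand to the STAT motif GAS (TTCNNNGAA), the NF-kB consensus motif or the interferon element ISRE (GAAANNGAAA). The windows are chr11:53769764-53770063 (plus strand) for Irf1, chr11:117969317-117969616 (minus strand) for Socs3, chr1:52007990-52008289 (plus strand) for Stat4 and chr6:29526375-29526674 (plus strand) for Irf5.
Irf1: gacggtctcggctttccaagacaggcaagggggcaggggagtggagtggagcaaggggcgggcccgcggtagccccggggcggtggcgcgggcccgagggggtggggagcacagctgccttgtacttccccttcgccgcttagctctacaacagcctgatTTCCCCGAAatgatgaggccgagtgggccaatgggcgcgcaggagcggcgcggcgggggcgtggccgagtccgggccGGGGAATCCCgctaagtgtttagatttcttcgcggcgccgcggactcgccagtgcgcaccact
Socs3: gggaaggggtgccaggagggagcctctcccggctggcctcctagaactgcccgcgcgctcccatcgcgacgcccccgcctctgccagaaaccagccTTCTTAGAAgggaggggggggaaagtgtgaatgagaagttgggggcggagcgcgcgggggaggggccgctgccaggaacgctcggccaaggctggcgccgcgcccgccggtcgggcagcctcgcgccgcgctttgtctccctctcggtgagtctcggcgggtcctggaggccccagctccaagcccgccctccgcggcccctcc
Stat4: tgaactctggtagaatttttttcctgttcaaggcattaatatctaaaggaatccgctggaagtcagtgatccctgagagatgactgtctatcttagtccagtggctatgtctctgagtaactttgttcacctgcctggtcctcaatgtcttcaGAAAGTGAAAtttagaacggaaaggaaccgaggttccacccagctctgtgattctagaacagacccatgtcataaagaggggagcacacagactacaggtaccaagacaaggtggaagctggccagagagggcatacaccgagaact
Irf5: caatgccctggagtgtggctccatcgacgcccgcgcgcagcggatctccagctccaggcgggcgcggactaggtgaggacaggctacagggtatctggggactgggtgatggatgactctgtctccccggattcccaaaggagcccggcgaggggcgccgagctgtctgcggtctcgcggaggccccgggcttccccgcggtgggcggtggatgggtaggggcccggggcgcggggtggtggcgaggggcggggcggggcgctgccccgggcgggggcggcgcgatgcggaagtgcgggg

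The Irf1 window holds a GAS match (TTCCCCGAA, first base 90 before the start) and an NF-kB match (GGGGAATCCC, 13 before the start). Socs3 has a GAS match (TTCTTAGAA, 154 before the start) and this Stat4 window an ISRE match (GAAAGTGAAA, 97 before the start). The other Irf1 entry, the other Stat4 entry, the Irf5 window and that of Jak1 hold none of the 3 motifs. Promoter entries were found for 40 of the 48 members, 50 entries in all. A GAS match stood in 24% of these entries and in 8.3% of all 32851 promoters of the same length, an NF-kB match in 24% and 8.46%, and an ISRE match in 12% and 3.44%. Nfkb2 had the most NF-kB matches, spread over entries that partly overlap one another. A match describes the letters in the window and is neither a binding site nor a cause.

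Genes around the members were read from fixed lists of their pathways. Among NF-kB target genes, 14 of 20 were tested, and 11 were called higher with stage in AoD (8.6% of all tested genes), while in AoV 8 were called higher (6.04%) and 1 lower (4.99%). The median log2 fold changes were 1.64 and 1.39, beside 0.00 over all tested genes in both. Ccl2, Ccl4, Cxcl1 and Tnf reached 0.5 RPM only in E10.5 libraries. The counts and medians of this list are therefore no independent support for a rise with stage. Ccl2, a monocyte chemokine, rose by 2.63 in AoD and 2.67 in AoV, and Ccl3 by 2.55 and 2.08. The regulators Nfkbiz and Tnfaip3, both NF-kB targets that feed back on the pathway, rose by 1.72 and 1.65 in AoD and by 1.48 and 1.43 in AoV. Nfkbiz stood at 11.9, 10.7 and 10.3 RPM in E9 AoD, 17.1, 14.0 and 16.3 RPM in E9 AoV, then 40.4, 30.0 and 39.6 RPM in E10 AoD and 52.1, 35.6 and 46.3 RPM in E10 AoV. The chemokines are also made by macrophages, whose markers rose in the same comparisons, and their part in these values was not tested.

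Among interferon response genes, 23 of 30 were tested. With stage, 8 were called higher in AoD (8.6% of all tested genes) with a median of 0.72 over the list, and 8 in AoV (6.04%) with a median of 0.43. At any fold 16 were higher in AoD (30% of all tested genes), and in AoV 13 were higher (23.6%) and 5 lower (22.4%). Isg15, Mx2, Oas1a, Ifi44, Gbp3, Psmb8 and Ddx60 reached 0.5 RPM only in E10.5 libraries. These counts and medians are therefore no independent support for a rise with stage. On the ventral side 8 genes of the list were called higher at E9.5 (8.32%, median 0.74) and 4 at E10.5 (5.81%, median 0.36). Iigp1, a GTPase that interferon gamma induces, was at 1.34, 1.27 and 1.35 RPM in E9 AoV, then 5.86, 7.07 and 5.83 RPM in E10 AoD, 28.9, 35.0 and 32.7 RPM in E10 AoV and 2.42, 2.28 and 1.97 RPM in E10 UGR. E10 AoV was thus above every other library, as it was for Irf5, Stat4 and Jak1, by 4.50 against E9 AoV (SE 0.14, adjusted p = 3.88e-11), 2.35 against E10 AoD (adjusted p = 7.68e-09) and 3.80 against E10 UGR (adjusted p = 2.07e-10). Gbp2, another GTPase that interferons induce, was called in the first 2 of these comparisons (1.80 and 2.38).

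Of 19 TLR adaptors and kinases, 18 were in the table and 17 tested, and 4 were called higher in E10 AoD (8.6% of all tested genes) and 3 in E10 AoV (6.04%) than at E9.5. They included Unc93b1, the chaperone that carries the endosomal TLRs, which rose by 2.25 in AoD (SE 0.13, adjusted p = 5.23e-09) and 1.19 in AoV (SE 0.13, adjusted p = 4e-06), and the RNA receptor Tlr13 (2.54 and 1.97). Cd14 and Tlr13 reached 0.5 RPM only in E10.5 libraries, so these counts are no independent support for a rise with stage. Unc93b1 was at 6.38, 6.30 and 5.82 RPM in E10 AoD and at 3.42, 4.30 and 3.31 RPM in E10 AoV, with 3.88, 4.17 and 4.11 RPM in E10 UGR. Of 20 tested JAK-STAT cytokine receptors, 10 were called higher with stage in AoD (8.6% of all tested genes), and in AoV 2 were called higher (6.04%) and 1 lower (4.99%), which is near the share over all genes. Il2rg, the common gamma chain that Jak3 binds, was called for a ventral excess at E10.5 (1.019, adjusted p = 0.000306), at 14.8, 13.0 and 14.8 RPM against 7.25, 6.70 and 6.89 RPM. Lepr, the leptin receptor, stood against that direction, at 2.49, 2.33 and 1.70 RPM in E10 AoV and 25.0, 28.7 and 25.3 RPM in E10 AoD (-3.55, SE 0.13, adjusted p = 1.21e-10).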

How the data were processed

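RNA was extracted by the authors from pooled tissue, made into TruSeq libraries and sequenced from a single end. Alignment by the authors used TopHat with Bowtie 0.12.3 on NCBI37/mm9. They counted reads over Ensembl genes with GeneProf, which divides reads that match several genes among them, and deposited RPM, which scales each library to the same total. The deposited table also holds, for 6 comparisons, the authors' log2 fold changes and adjusted p-values from DESeq, which were not used.

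Genes reaching 0.5 RPM in 1 or more libraries were fitted on log2(RPM + 0.1), using limma 3.58.1 (R 4.3.3) on all 15 libraries with group means, an intensity trend and Benjamini-Hochberg adjustment over the tested genes. The study's count test could not be used on RPM, since whole reads were not recovered (59.2% to 61.8% of low values were whole within 0.05 reads). The fit was tested on simulated data. Members called at an adjusted p below 0.05 and a 2-fold change have full statistics, and at most 4 called genes per pathway list and comparison are named. Positions come from GENCODE on NCBIM37. Other pseudocounts, filters and scalings, the compared groups alone, a replicate block and each library left out were tried. Same-numbered libraries deviated together for E9 AoD and E9 AoV (correlations of 0.19 to 0.452). Those within E10.5 were also positive (0.0416 to 0.339), but each of the other pairs of groups had at least 1 correlation under 0.1. The main fit has no block. Members and lists were chosen with earlier results of these data known. Intervals cover counting error only.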

Additional observations from a re-analysis of the deposited data

Results flagged for a closer look

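The change with stage differed between the ventral and the dorsal aorta, by the interaction term in limma at an adjusted p below 0.05, for 17 of the 46 tested members. Of these, 2 were positive (11.8% of all tested genes) and 15 negative (16.3%). Each value is the log2 stage change of AoV minus that of AoD. Among the TLRs and their adaptor it was -0.90 for Tlr2, -1.17 for Tlr5, -2.19 for Tlr6 and -0.45 for Myd88. It was -0.52 for the NF-kB inhibitor Nfkbia and -0.63 for Irf1. Among the STATs it was -0.61 for Stat3, -0.90 for Stat5a, -0.56 for Stat5b and -0.42 for Stat6. The kinases differed from each other, at 0.41 for Jak1 and -0.36 for Jak2. In the SOCS family it was -0.51 for Socs1, 0.28 for Socs7 and -0.49 for Cish, and for the interferon receptor chains -0.28 for Ifnar2 and -0.70 for Ifngr1. Several marker lists moved in the same direction past the adjusted p: 11 of 12 endothelial markers (median -0.67), 7 of 8 mesenchymal markers (median -1.75), 10 of 15 hematopoietic markers (median -0.88), 5 of 13 macrophage markers (median -0.71) and 10 of 12 markers of hepatic and gut endoderm (median -4.83). Germ cell markers moved the other way, with 7 of 9 positive (median 2.66), as did 8 of 8 urogenital markers (median 2.42). Of 10 neural tube markers, 8 were positive and 1 negative past the adjusted p (median 2.04). The part of all these cell types in the values of the members was not tested.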

How the results depend on the processing

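Over 29 calls of 12 members, 660 checks under the alternatives kept 619 calls, lost 41 and reversed 0. Of these checks, 435 left out 1 library, also libraries outside the compared groups, where the fold change cannot move. They lost 10 calls. A pseudocount of 1 RPM lost 16 of the 29 calls and 1 of 0.5 RPM lost 12. With a pseudocount of 1 RPM the members called fell to 4 for E10 AoV against E9 AoV, 3 for E10 AoD against E9 AoD, 2 for E9 AoV against E9 AoD, 1 for each aortic side against E10 UGR and 0 for the interaction. With 0.5 RPM they were 4 for E10 AoD against E9 AoD, 2 for E9 AoV against E9 AoD, 1 for E10 AoV against E10 UGR and 0 for the interaction. Low genes such as Tlr1, Tlr6 and Tlr9 weigh less under both by construction. With at least 1 RPM in at least 3 libraries, which leaves out low members, 5 were called for E10 AoD against E9 AoD and 1 for the interaction. Quantile normalization put 20 members past the adjusted p for E10 AoD against E10 UGR, in place of 12, and the cause was not tested.

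Leaving out each library in turn gave 1 to 2 called members for E10 AoV against E10 UGR, with 1 without E10 AoV replicate 3, E10 UGR replicate 1 or E10 UGR replicate 2, where Irf5 lost its call, and 2 to 4 for the interaction, with 4 without E10 AoD replicate 3. The replicate block gave the same counts of called members, 7 for E10 AoV against E9 AoV, 3 for E10 AoV against E10 AoD, 8 for E10 AoD against E9 AoD and 4 for E9 AoV against E9 AoD. Whether replicate numbers pair the libraries differed by group: over 30 same-numbered pairs the correlation of deviations lay between -0.138 and 0.452, and 11 exceeded 0.1. In 1 of 10 pairs of groups, E9 AoD with E9 AoV, all 3 same-numbered correlations did (0.452, 0.347 and 0.19), and there the block kept the 4 calls and gave 29 members higher and 3 lower at any fold. Within E10.5 all same-numbered correlations were positive (0.0416 to 0.339), and between stages they lay between -0.138 and 0.216. The block joined libraries of the same number across both stages, and a block within each stage was not tried. At this depth, members near 3 reads per library at E9.5 have wide intervals.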
